A study of Mus musculus with 9 samples.

Results

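The comparison described here is between 4T1 tumors grown in mice on a high-fat diet (HFD) and 4T1 tumors grown in mice on a low-fat diet (LFD). It rests on 6 of the 9 RNA-seq libraries of the series, the 3 labelled as high-fat diet with vehicle and the 3 labelled as low-fat diet, and it covers all genes in the count tables. The remaining 3 libraries, from HFD tumors treated with EC359, were used to ask which of the diet-associated differences were still present under the drug. 4T1 is a transplantable mouse mammary carcinoma line that is used as a model of triple-negative breast cancer (TNBC) and grows in BALB/c mice with an intact immune system. All 3 groups received 500000 4T1 cells in the mammary fat pad once they had eaten their diet for 6 weeks. Fat supplied 10% of the calories of the LFD and 60% of those of the HFD. The HFD group was given vehicle. The study's methods name 0.3% hydroxypropyl cellulose as the vehicle for its other xenograft mice. For the 4T1 model they do not say whether the LFD mice received vehicle. The third group was given EC359, an inhibitor of the leukemia inhibitory factor receptor (LIFR), at 5 mg/kg on 5 days per week. The age of the mice, and which tumors of the experiment were sequenced, are not given in the sources used here. All tumors came from 1 cell line, and bulk tumor tissue can hold host stroma, vessels, immune cells and any adjacent skin beside the carcinoma cells.

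A diet rich in fat enlarges adipose tissue, which surrounds a mammary tumor, and adipose tissue is known as a source of leptin, insulin-like growth factors, cytokines and fibroblast-like stromal cells. The stroma of a carcinoma is built by fibroblasts, which secrete collagens and small proteoglycans, and by pericytes and endothelial cells, which form its vessels. Squamous epithelium, as in the epidermis, expresses keratins in pairs, joins its cells by desmosomes and connexins, and forms a cornified envelope from small proline-rich proteins. Mammary carcinoma cells in mice can take on such a squamous program, and skin that overlies the fat pad expresses the same genes. In bulk tumor RNA, fewer cells of a type and less RNA per cell cannot be told apart.

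Levels are given as CPM, counts scaled to the library size with TMM factors, and changes as the log2 fold change of HFD over LFD with its standard error (SE). The library totals were 5085357 to 6509130 counts in the LFD group, 7314704 to 7922852 in the HFD group and 8043649 to 9751201 with EC359. In these libraries 3 counts, the limit that a count of 0 allows for counting error only, equal 0.300 to 0.614 CPM. The biological coefficient of variation was 5.66% within the LFD group and 2.54% within the HFD group, so that small changes passed the test. LFD replicate 1 stood somewhat apart from LFD replicates 2 and 3, with a mean chi-square per gene of 3.10 and 2.54 against 1.36 between the other two. The carcinoma keratins Krt8 and Krt18 were abundant in all libraries, at 584, 602, and 611 CPM and 497, 474, and 487 CPM in the LFD group, whereas Epcam, another epithelial marker, was below 10 CPM in all libraries. GC content moved with the groups, and its part in the results was tested only by the repeat below. Relative to the mean of all libraries, the mean log2 level of the 25% of genes lowest in GC content, minus that of the 25% highest, was -0.54, -0.32 and -0.36 in the LFD libraries. It was 0.10, 0.13 and 0.16 in the HFD libraries and 0.27, 0.25 and 0.30 in the HFD + EC359 libraries. The comparison was therefore repeated after a trend with GC content and length was taken out of each library, called the GC-corrected fit here. Whether the separate samples of a group came from separate mice is not stated in the labels, so the p-values measure the spread between these samples.

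**Figure D1:**
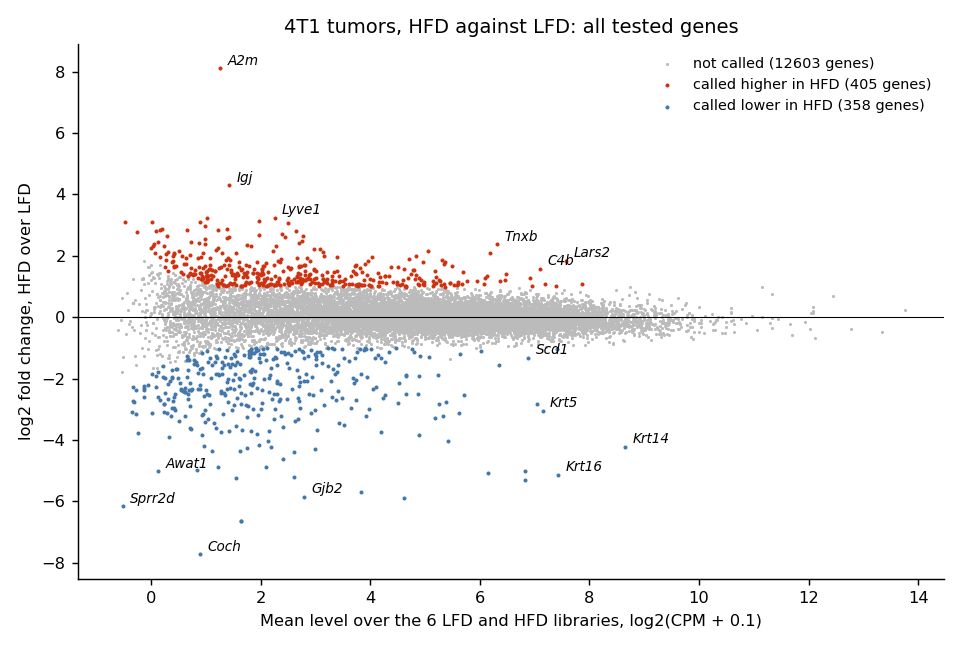
Each point is 1 of the 13366 tested genes, with its mean level over the LFD and HFD libraries on the horizontal axis as log2(CPM + 0.1) and its log2 fold change, HFD over LFD, on the vertical axis. Red marks the 405 genes called higher and blue the 358 called lower in HFD tumors, and the keratins Krt14, Krt16 and Krt5 lie far below 0 at high levels.

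A gene was called when its fold change exceeded 2 and its adjusted p was under 0.01 by the quasi-likelihood test of edgeR, adjusted over all tested genes. In HFD tumors 405 genes were called higher, 3.03% of the genes tested, and 358 were called lower, 2.68%. The changes were unequal in size: 200 of the 358 genes called lower changed more than 4-fold, against 59 of the 405 called higher. The median log2 fold change was -2.20 among the former and 1.37 among the latter. For the gene lists below, a member was counted as having risen or fallen at an adjusted p under 0.05 with any fold change, which 26.0% of all tested genes did upward and 25.8% downward. The median log2 fold change of all tested genes was 0.01. A share of a list near these values is therefore no result about the list. Lists and their members were chosen with earlier results of these data known, so a share far from these values is a description. In the GC-corrected fit, 319 genes were called higher and 342 lower, of which 277 and 313 were also called without it. At an adjusted p under 0.05 with any fold change, 2757 of the 13366 tested genes rose and 2944 fell in that fit. List counts from that fit are to be read beside these.

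**Figure D2:**
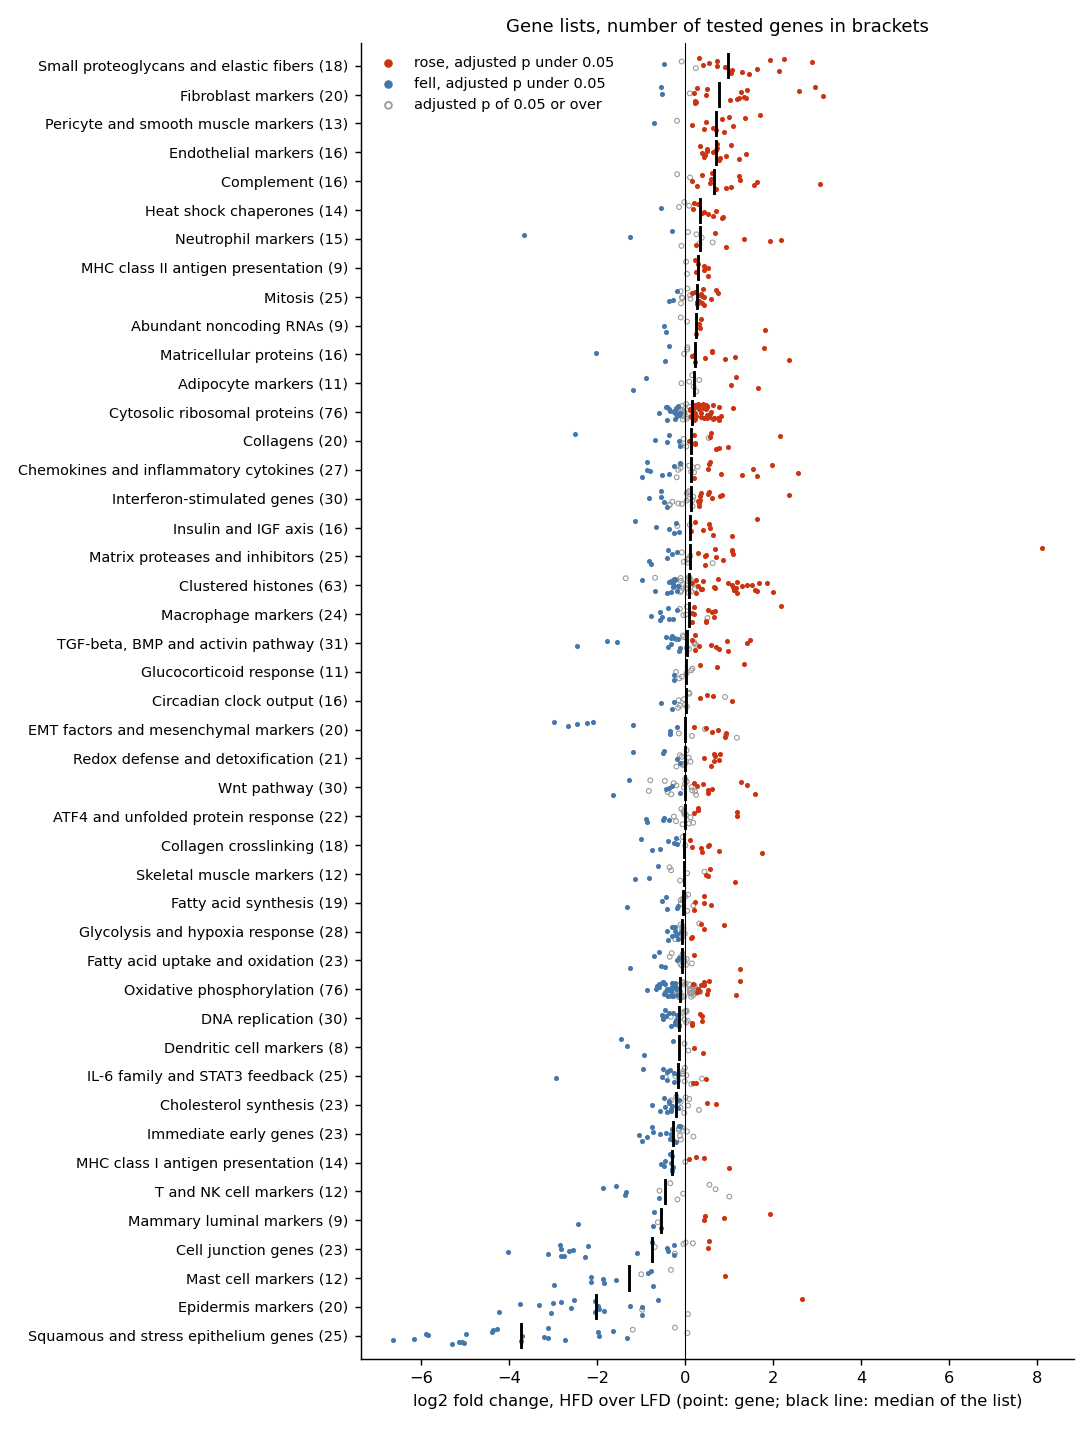
Each row is a gene list with at least 8 tested genes, without the 5 lists written after values were seen, each point a gene placed by its log2 fold change, HFD over LFD, and each black line the median of the list. Red points rose and blue points fell at an adjusted p under 0.05, and open points did neither. The squamous, epidermis, mast cell and cell junction lists lie lowest of those drawn, and the small proteoglycan, fibroblast, pericyte, endothelial and complement lists lie highest.

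Squamous epithelial genes had the lowest median of the gene lists. Of 25 tested genes typical of squamous and stressed epithelium, 22 fell, 0 rose, and 22 were called lower, with a median log2 fold change of -3.73. Their summed level was 1183 to 1270 CPM in the LFD libraries, 70.6 to 74.3 CPM in the HFD libraries, and 699 to 744 CPM in the HFD + EC359 libraries; the 3 groups did not overlap, and the drug group lay between the other two. Of 20 tested epidermis markers 17 fell and 14 were called lower (median -2.02), and their summed level was 1328 to 1500 CPM in the LFD libraries, 234 to 246 CPM in the HFD libraries, and 708 to 719 CPM in the HFD + EC359 libraries. Both lists hold genes of the same kind of epithelium, and a squamous change of the carcinoma cannot be told apart from the amount of skin in the sample.

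Krt14 and Krt5 encode the keratin pair of basal epithelial cells. Krt14 (mm9 chr11:100064476-100068824) was 839, 707, and 739 CPM in the LFD libraries, 40.6, 40.3, and 40.9 CPM in the HFD libraries, and 233, 239, and 238 CPM in the HFD + EC359 libraries. It was 18.8-fold lower with HFD (log2 fold change -4.23, SE 0.0566, adjusted p = 1.21e-33). Krt5 (mm9 chr15:101537501-101543322) was 267, 236, and 255 CPM in the LFD libraries, 28.2, 27.5, and 36 CPM in the HFD libraries, and 146, 139, and 144 CPM in the HFD + EC359 libraries. Krt5 changed by -3.05 on the log2 scale (SE 0.0668, adjusted p = 1.47e-27). For both genes the LFD libraries were highest, the HFD libraries lowest and the drug group between, with no overlap. The stress keratins of activated epithelium fell further. Krt16 (mm9 chr11:100107406-100110216) was 386, 311, and 308 CPM in the LFD libraries, 10.6, 10.1, and 7.63 CPM in the HFD libraries, and 133, 129, and 132 CPM in the HFD + EC359 libraries. Krt16 changed by -5.14 on the log2 scale (SE 0.0916, adjusted p = 3.94e-30). Krt17 was 139, 138, and 134 CPM in the LFD libraries, 3.15, 4.98, and 4.09 CPM in the HFD libraries, and 110.2, 114, and 116 CPM in the HFD + EC359 libraries. Krt17 changed by -5.07 on the log2 scale (SE 0.0941, adjusted p = 1.08e-29). Both were lower in each HFD library than in any other library, and with EC359 both lay between HFD and LFD, Krt17 nearer to LFD than Krt16. Krt6b was 202, 221, and 238 CPM in the LFD libraries, 7.94, 6.16, and 6.27 CPM in the HFD libraries, and 169, 159.9, and 139 CPM in the HFD + EC359 libraries. Krt6b changed by -5.02 on the log2 scale (SE 0.0979, adjusted p = 4.22e-29). Krt6a was 225, 221, and 213 CPM in the LFD libraries and 6.56, 4.19, and 5.86 CPM in the HFD libraries. Krt6a changed by -5.30 on the log2 scale (SE 0.0859, adjusted p = 2.75e-31). Krt6a and Krt6b are near-identical copies, and Krt6a overlaps the hair keratin Krt85 on its strand, so that the split of reads between these genes is uncertain. Krt85 was among the 12 largest decreases (log2 fold change -5.69), as was Gm5478 (-5.90). Trp63, the transcription factor p63 of basal epithelium, was 12.9, 11.6, and 11.5 CPM in the LFD libraries, 3.4, 2.23, and 3.54 CPM in the HFD libraries, and 13.7, 11.2, and 10.4 CPM in the HFD + EC359 libraries. Trp63 changed by -1.96 on the log2 scale (SE 0.20, adjusted p = 7.34e-10). Its levels in the LFD and the drug group overlapped.

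Not every epidermal gene fell. Krt10, the keratin of suprabasal epidermis, was 56.7, 46.2, and 54.8 CPM in the LFD libraries and 53.8, 59.2, and 50.7 CPM in the HFD libraries (log2 fold change 0.06, adjusted p = 0.52), and it was 0.20 in the GC-corrected fit and -0.03 without LFD replicate 2. Its partner Krt1 was 74.7, 83.4, and 85.7 CPM in the LFD libraries and 38, 40.1, and 45.1 CPM in the HFD libraries (log2 fold change -0.99, SE 0.0742, adjusted p = 7.7e-13), a change of just under 2-fold. Krt77, a keratin of sweat gland ducts and epidermis, went the other way. It was 1.84, 1.26, and 2.47 CPM in the LFD libraries, 11.6, 11.1, and 12.3 CPM in the HFD libraries, and 9.1, 10.4, and 8.8 CPM in the HFD + EC359 libraries (log2 fold change 2.66, SE 0.23, adjusted p = 1.33e-11), with all HFD libraries above all LFD libraries.

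Cornified envelope genes were low in HFD tumors. Rptn, which encodes repetin of the envelope, was 8.59, 13.5, and 12.9 CPM in the LFD libraries, 0.378, 0.262, and 0.273 CPM in the HFD libraries, and 14.2, 15.2, and 14.8 CPM in the HFD + EC359 libraries, lower with HFD by 38.8-fold (95% counting interval 18.5 to 97.8). Sprr2d was 1.64, 1.26, and 0.705 CPM in the LFD libraries, 0, 0, and 0 CPM in the HFD libraries, and 3.4, 2.48, and 1.2 CPM in the HFD + EC359 libraries, at least 3.05-fold lower with HFD, with 3 counts per library as the floor. Sprr2a1 and Sprr2a2 had identical counts and are 1 measurement, at 6.55, 6.44, and 4.93 CPM in the LFD libraries and 0, 0, and 0.136 CPM in the HFD libraries. The HFD libraries held 1 count of Sprr2a1 in all. Sprr1a, which lies in the same small proline-rich gene cluster on chromosome 3, was 41.7, 30.8, and 29.8 CPM in the LFD libraries, 3.03, 2.49, and 2.04 CPM in the HFD libraries, and 21.2, 21.1, and 17.6 CPM in the HFD + EC359 libraries. Sprr1a changed by -3.73 on the log2 scale (SE 0.18, adjusted p = 6.55e-18). The kallikrein protease gene Klk6 was 12.1, 9.73, and 12.5 CPM in the LFD libraries, 0.504, 0.393, and 0.681 CPM in the HFD libraries, and 13.5, 13.8, and 9.6 CPM in the HFD + EC359 libraries. Klk6 changed by -4.39 on the log2 scale (SE 0.31, adjusted p = 1.23e-13). Lor, which encodes loricrin, was 14.1, 9.73, and 9.16 CPM in the LFD libraries, 3.15, 2.75, and 3.13 CPM in the HFD libraries, and 9.82, 8.01, and 9 CPM in the HFD + EC359 libraries. Lor changed by -1.84 on the log2 scale (SE 0.21, adjusted p = 7.03e-09). In each of these genes the LFD and the HFD libraries did not overlap. With EC359, Rptn and Klk6 overlapped or exceeded LFD, Sprr2d and Lor overlapped it, and Sprr1a lay between the other groups.

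Several of these genes carry the same short motif close to their start. The promoters of 4 of them, 250 bases before to 50 bases after the start in RefSeq's table (GRCm38.p6), are shown to let the motif be seen in its context. Capitals mark each match to TGANTCA, the AP-1 binding motif, searched on both strands.
Sprr1a (chr3:92485832-92486131, minus strand): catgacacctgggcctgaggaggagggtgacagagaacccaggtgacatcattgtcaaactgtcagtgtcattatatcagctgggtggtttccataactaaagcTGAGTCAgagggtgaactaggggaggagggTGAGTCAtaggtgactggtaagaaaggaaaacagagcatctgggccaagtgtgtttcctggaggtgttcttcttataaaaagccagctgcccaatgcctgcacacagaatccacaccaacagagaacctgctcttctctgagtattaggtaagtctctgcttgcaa
Sprr2d (chr3:92338890-92339189, plus strand): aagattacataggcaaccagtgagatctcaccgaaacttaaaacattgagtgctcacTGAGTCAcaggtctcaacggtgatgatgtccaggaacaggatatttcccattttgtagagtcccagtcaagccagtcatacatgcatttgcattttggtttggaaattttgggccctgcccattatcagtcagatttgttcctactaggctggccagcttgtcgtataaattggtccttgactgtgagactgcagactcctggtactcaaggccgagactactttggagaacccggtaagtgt
Rptn (chr3:93393449-93393748, plus strand): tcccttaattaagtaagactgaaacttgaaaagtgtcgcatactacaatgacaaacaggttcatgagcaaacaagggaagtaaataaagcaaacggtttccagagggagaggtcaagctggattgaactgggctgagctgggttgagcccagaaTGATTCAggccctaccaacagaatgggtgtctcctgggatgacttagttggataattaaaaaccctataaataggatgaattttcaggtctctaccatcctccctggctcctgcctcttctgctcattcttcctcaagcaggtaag
Lor (chr3:92083093-92083392, minus strand): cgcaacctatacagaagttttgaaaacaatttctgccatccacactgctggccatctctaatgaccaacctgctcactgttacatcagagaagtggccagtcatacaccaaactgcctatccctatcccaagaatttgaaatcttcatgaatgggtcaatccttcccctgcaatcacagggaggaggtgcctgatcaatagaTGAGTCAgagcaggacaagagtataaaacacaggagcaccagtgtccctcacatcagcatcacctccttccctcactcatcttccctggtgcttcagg
Sprr1a had 2 matches, 146 and 116 bases before its start, Sprr2d 1 at 193 bases, Rptn 1 at 96 bases, and Lor 1 at 48 bases. Of the 25 squamous genes, 17 had a promoter in the table, and 7 of these (41.2%) held the motif, against 5.29% of the 10370 tested genes with a promoter and 7.93% of all promoters in the table. Among the genes called lower it was 30 of 244 (12.3%), and among those called higher 25 of 279 (8.96%). The STAT motif TTCNNNGAA was in 17 of the 244 promoters of genes called lower (6.97%) and 24 of the 279 of genes called higher (8.6%), against 6.84% of those of all tested genes. The Sprr genes are related copies, so their promoters are not independent of one another. A match describes these letters and does not show that a factor binds there.

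Genes that join epithelial cells followed the keratins. Of 23 tested cell junction genes, 16 fell, 2 rose and 11 were called lower (median -0.76). Gjb2 (mm9 chr14:57717439-57723539), which encodes connexin 26 of gap junctions, was 13.5, 14.6, and 12.2 CPM in the LFD libraries, 0.252, 0.131, and 0.273 CPM in the HFD libraries, and 21.2, 21.8, and 20.1 CPM in the HFD + EC359 libraries. It was lower with HFD by 61.7-fold (95% counting interval 26 to 192), and each library with EC359 was above each LFD library. Gjb6, which encodes connexin 30, was 3.89, 2.67, and 3.35 CPM in the LFD libraries and 0, 0.131, and 0.136 CPM in the HFD libraries, lower by 37.2-fold (95% counting interval 9.82 to 315). Dsp, which encodes desmoplakin, the anchor of keratins at desmosomes, was 224, 238, and 233 CPM in the LFD libraries, 32, 38.6, and 28.5 CPM in the HFD libraries, and 159.5, 167, and 155 CPM in the HFD + EC359 libraries. Dsp changed by -2.81 on the log2 scale (SE 0.0653, adjusted p = 7.84e-27). Dsg3 and Pkp1, 2 further desmosome genes, changed by -4.04 and -3.11 on the log2 scale. Cdh1, which encodes E-cadherin, was 27.4, 29, and 28.9 CPM in the LFD libraries, 5.55, 6.03, and 6.13 CPM in the HFD libraries, and 20.1, 20.3, and 19.3 CPM in the HFD + EC359 libraries. Cdh1 changed by -2.27 on the log2 scale (SE 0.12, adjusted p = 3.48e-16). Cldn4 and Perp changed by -2.85 and -2.82.

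The list of EMT (epithelial-mesenchymal transition) factors and mesenchymal markers was divided: of 20 tested genes 6 rose and 9 fell, and the 6 that were called were all lower. The 4 lowest were factors of epithelium, Ovol1 (-2.99), Grhl1 (-2.67), Grhl3 (-2.47) and Esrp1 (-2.22). Zeb1, a repressor of E-cadherin, was 10.0, 6.44, and 8.11 CPM in the LFD libraries and 15.8, 15.8, and 14 CPM in the HFD libraries (log2 fold change 0.92, SE 0.16, adjusted p = 1.38e-05), whereas Vim, which encodes vimentin, was 2897, 2916, and 2883 CPM in the LFD libraries and 2296, 2256, and 2262 CPM in the HFD libraries. Vim changed by -0.35 on the log2 scale (SE 0.0262, adjusted p = 6.91e-13). The luminal keratins of the carcinoma changed less than the basal ones: Krt18 changed by -0.73 and Krt8 by -0.55 on the log2 scale. Epcam, which is not a keratin, fell further than both (-2.43).

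**Figure D3:**
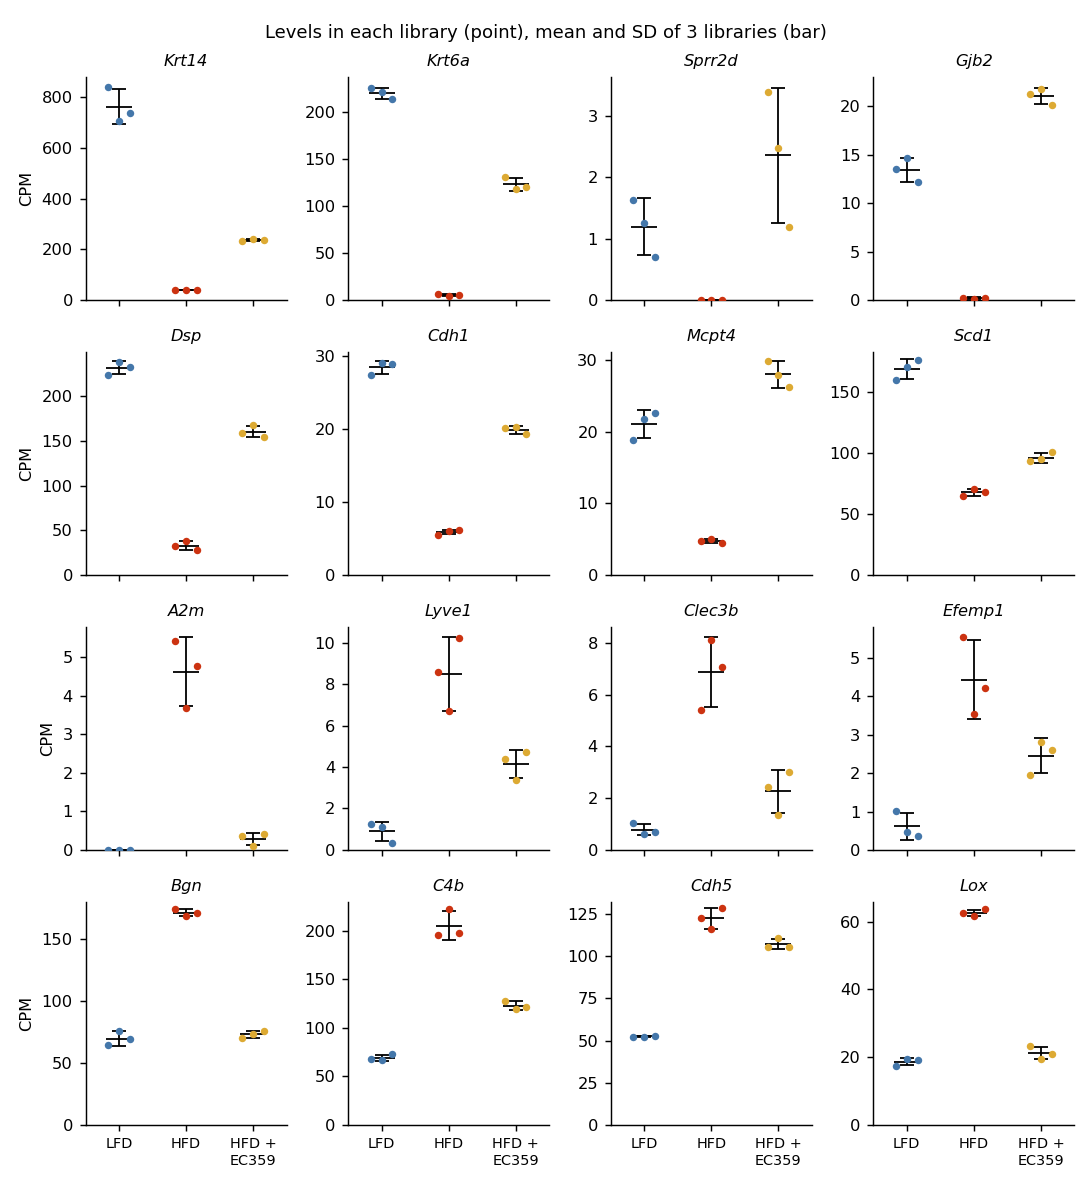
Each panel shows the level of 1 gene in CPM, with points for the 3 libraries of each group and a bar for their mean and SD, and each vertical axis starts at 0. In the first 2 rows the HFD libraries lie below the LFD libraries, as for Krt14 and Gjb2, and in the last 2 rows above them, as for A2m and Bgn.

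Decreases were also found in secreted and lipid-synthesis genes. Coch, which encodes the secreted protein cochlin, had the largest fitted decrease. It was 3.27, 3.77, and 3.52 CPM in the LFD libraries, 0, 0, and 0 CPM in the HFD libraries, and 1.7, 1.81, and 1.9 CPM in the HFD + EC359 libraries, at least 8.95-fold lower with HFD, with 3 counts per library as the floor. Mill1, an MHC class I-like gene, was 4.5, 5.49, and 6.52 CPM in the LFD libraries, 0, 0.393, and 0 CPM in the HFD libraries, and 3.88, 3.84, and 3.3 CPM in the HFD + EC359 libraries, lower with HFD by 42.4-fold (95% counting interval 14.1 to 209). Awat1, which encodes a wax ester synthase of sebaceous glands, was 1.64, 1.57, and 2.64 CPM in the LFD libraries, 0, 0, and 0.136 CPM in the HFD libraries, and 0.728, 0.451, and 0.3 CPM in the HFD + EC359 libraries; the HFD libraries held 1 count of it in all. A list of sebaceous gland genes was written after these values were seen. Of its 11 tested genes 8 fell and 1 rose, and 7 were called lower. Scd1, which encodes a desaturase that makes monounsaturated fatty acids, was 159, 171, and 176 CPM in the LFD libraries, 64.7, 70.6, and 68 CPM in the HFD libraries, and 93.2, 94.7, and 101 CPM in the HFD + EC359 libraries. Scd1 changed by -1.32 on the log2 scale (SE 0.054, adjusted p = 1.28e-19). Krt79, a keratin of the sebaceous duct, was 79.4, 82.1, and 80.4 CPM in the LFD libraries, 3.78, 4.72, and 6.27 CPM in the HFD libraries, and 27.5, 28, and 29.1 CPM in the HFD + EC359 libraries. Krt79 changed by -4.04 on the log2 scale (SE 0.11, adjusted p = 4.09e-24). The LFD libraries were above the HFD libraries for each of these genes. The epidermis markers fell with them, and the part of skin in their decrease was not tested.

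Connective tissue matrix genes were divided by kind. Of 18 tested small proteoglycan and elastic fiber genes, 15 rose, 1 fell and 9 were called higher (median 0.97). Their summed level was 1733 to 1783 CPM in the LFD libraries, 1771 to 1779 CPM in the HFD libraries, and 1305 to 1325 CPM in the HFD + EC359 libraries, so that the LFD and HFD ranges overlapped. Fbln2, which encodes fibulin-2, was the most abundant member and fell by 0.47 on the log2 scale. It was named after its values were seen. Of 20 fibroblast markers 17 rose, 2 fell and 10 were called higher (median 0.77, or 0.28 over the members that reached 10 counts in every library). In the GC-corrected fit, 15 and 16 genes rose. The summed level of the fibroblast markers was 1452 to 1482 CPM in the LFD libraries, 1595 to 1607 CPM in the HFD libraries, and 1569 to 1578 CPM in the HFD + EC359 libraries. Pdgfra and Pdgfrb, which encode receptors of fibroblasts and pericytes, changed by 0.22 and 0.25 on the log2 scale, and Pdgfra no longer passed in the GC-corrected fit (0.08).

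Bgn (mm9 chrX:70728974-70741275), which encodes biglycan, a small leucine-rich proteoglycan that binds collagen, was 64.2, 75.8, and 69.1 CPM in the LFD libraries, 175, 169, and 172 CPM in the HFD libraries, and 70.1, 73.3, and 75.9 CPM in the HFD + EC359 libraries. Bgn changed by 1.29 on the log2 scale (SE 0.0551, adjusted p = 3.89e-19). Dcn, which encodes the related decorin, was 21.7, 32.5, and 27.7 CPM in the LFD libraries, 71.8, 75.7, and 81.2 CPM in the HFD libraries, and 66.2, 73.1, and 70.5 CPM in the HFD + EC359 libraries. Dcn changed by 1.46 on the log2 scale (SE 0.0899, adjusted p = 6.08e-15). With EC359 the first was back at the LFD level and the second remained near the HFD level. Efemp1, which encodes fibulin-3 of elastic fibers, was 1.02, 0.471, and 0.352 CPM in the LFD libraries, 5.55, 3.54, and 4.22 CPM in the HFD libraries, and 1.94, 2.82, and 2.6 CPM in the HFD + EC359 libraries. Efemp1 changed by 2.88 on the log2 scale (SE 0.40, adjusted p = 3.25e-07). Mfap5, which encodes a microfibril protein, was 2.66, 2.51, and 3 CPM in the LFD libraries, 13.7, 11.4, and 13.5 CPM in the HFD libraries, and 3.15, 2.93, and 3.2 CPM in the HFD + EC359 libraries. Mfap5 changed by 2.24 on the log2 scale (SE 0.20, adjusted p = 4.32e-11). All HFD libraries of these genes lay above all LFD libraries. Fstl1, which encodes a secreted follistatin-like protein of mesenchyme, was 48.7, 49, and 47.8 CPM in the LFD libraries, 127, 131, and 127 CPM in the HFD libraries, and 51.5, 47.7, and 45.5 CPM in the HFD + EC359 libraries. Fstl1 changed by 1.41 on the log2 scale (SE 0.0602, adjusted p = 3.97e-19). Tnxb, which encodes tenascin-X, was 29.1, 24.6, and 23.8 CPM in the LFD libraries, 127, 137, and 135 CPM in the HFD libraries, and 32.3, 35.9, and 36.9 CPM in the HFD + EC359 libraries. Tnxb changed by 2.37 on the log2 scale (SE 0.0747, adjusted p = 8.23e-23). Nid1, which encodes nidogen of basement membranes, was 79.6, 81.9, and 80.9 CPM in the LFD libraries and 168, 165, and 163 CPM in the HFD libraries. Nid1 changed by 1.03 on the log2 scale (SE 0.0507, adjusted p = 1.87e-17).

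The 3 largest changes among fibroblast markers were in genes at low levels. Clec3b, which encodes tetranectin, was 1.02, 0.628, and 0.705 CPM in the LFD libraries, 5.42, 8.12, and 7.09 CPM in the HFD libraries, and 2.43, 1.35, and 3 CPM in the HFD + EC359 libraries. Clec3b changed by 3.13 on the log2 scale (SE 0.35, adjusted p = 6.08e-09). Prg4, which encodes lubricin, was 0.409, 0.628, and 0.176 CPM in the LFD libraries, 3.15, 1.83, and 5.04 CPM in the HFD libraries, and 0.364, 0.339, and 0.6 CPM in the HFD + EC359 libraries. Prg4 changed by 2.96 on the log2 scale (SE 0.51, adjusted p = 1.07e-05). Sfrp4, which encodes a secreted Wnt antagonist, was 0.614, 0.942, and 0.529 CPM in the LFD libraries and 3.91, 5.37, and 3.68 CPM in the HFD libraries. Sfrp4 changed by 2.58 on the log2 scale (SE 0.40, adjusted p = 2.16e-06). Prg4 varied more than 2-fold among the HFD libraries, and its highest LFD value was still below its lowest HFD value. Lox, which encodes the lysyl oxidase that crosslinks collagen, was 17.4, 19.3, and 19 CPM in the LFD libraries, 62.7, 61.8, and 63.6 CPM in the HFD libraries, and 23.2, 19.5, and 21 CPM in the HFD + EC359 libraries (log2 fold change 1.75, SE 0.0917, adjusted p = 9.88e-17), the largest increase of the crosslinking list, of which 8 of 18 genes rose and 7 fell, or 10 and 4 in the GC-corrected fit.

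The collagens did not move as one. Of 20 tested genes 10 rose and 6 fell, 1 was called higher and 1 lower. In the GC-corrected fit 14 rose and 5 fell, and 2 were called higher and 1 lower. Col14a1, which encodes a fibril-associated collagen, was 13.7, 11, and 12 CPM in the LFD libraries, 58.1, 52.5, and 52.3 CPM in the HFD libraries, and 12.5, 12.2, and 13.3 CPM in the HFD + EC359 libraries. Col14a1 changed by 2.16 on the log2 scale (SE 0.10, adjusted p = 1.38e-17). Col17a1, a collagen of the hemidesmosomes of basal epithelium, was 50.5, 48.8, and 48.8 CPM in the LFD libraries, 8.45, 8.78, and 9 CPM in the HFD libraries, and 47.7, 46.8, and 49.2 CPM in the HFD + EC359 libraries. Col17a1 changed by -2.50 on the log2 scale (SE 0.10, adjusted p = 1.25e-19). The first rose and the second fell, and both were near the LFD level with EC359. The fibrillar collagens Col1a1, Col1a2 and Col3a1 rose by 0.71, 0.77 and 0.98 on the log2 scale, each under 2-fold. In the GC-corrected fit they rose by 0.99, 0.92 and 1.03. The summed level of the collagen list was 16986 to 19663 CPM in the LFD libraries and 22123 to 23184 CPM in the HFD libraries. With EC359 it was 10061 to 10370 CPM, below both other groups. Col1a1 was called lower with EC359 than with LFD (log2 fold change -1.38, or -0.96 in the GC-corrected fit). Matricellular proteins were also divided, with 10 of 16 higher and 3 lower, among them Sparc (0.46) and Fn1, which encodes fibronectin (0.22).

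A2m (mm9 chr6:121586191-121629256), which encodes the broad protease inhibitor alpha-2-macroglobulin, had the largest fitted increase. It was 0, 0, and 0 CPM in the LFD libraries, 5.42, 3.67, and 4.77 CPM in the HFD libraries, and 0.364, 0.113, and 0.4 CPM in the HFD + EC359 libraries, at least 8.59-fold higher with HFD, with 3 counts per library as the floor. The HFD libraries were above all others, and with EC359 A2m was not called against LFD (adjusted p = 0.0235). Of 25 matrix proteases and inhibitors 11 rose and 6 fell.

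Vessel markers rose with HFD. All 16 endothelial markers tested rose, with a median of 0.71, and 16 rose in the GC-corrected fit. Their summed level was 700.1 to 721 CPM in the LFD libraries, 1066 to 1107 CPM in the HFD libraries, and 853 to 894 CPM in the HFD + EC359 libraries. Cdh5 (mm9 chr8:106625525-106668402), which encodes the cadherin of endothelial junctions, was 52.4, 52.3, and 52.7 CPM in the LFD libraries, 123, 116, and 129 CPM in the HFD libraries, and 105, 111, and 106 CPM in the HFD + EC359 libraries. Cdh5 changed by 1.22 on the log2 scale (SE 0.0583, adjusted p = 8.52e-18). Emcn, which encodes endomucin of veins and capillaries, was 4.5, 3.92, and 3.88 CPM in the LFD libraries and 11.1, 9.82, and 11.3 CPM in the HFD libraries. Emcn changed by 1.39 on the log2 scale (SE 0.19, adjusted p = 1.49e-07). Kdr, which encodes the VEGF receptor 2, was 30.7, 33.4, and 31.2 CPM in the LFD libraries, 59.3, 55.3, and 51.9 CPM in the HFD libraries, and 39.1, 35.2, and 36.3 CPM in the HFD + EC359 libraries. Kdr changed by 0.80 on the log2 scale (SE 0.0836, adjusted p = 1.29e-09). The LFD libraries were lowest for all 3 genes, and with EC359 Kdr was between the other groups. Of 13 pericyte and smooth muscle markers 11 rose and 1 fell, with Abcc9 at 10.6, 12.6, and 8.81 CPM in the LFD libraries and 26.5, 29.5, and 26.6 CPM in the HFD libraries (log2 fold change 1.36, SE 0.13, adjusted p = 3.59e-10). Lyve1, which encodes a hyaluronan receptor of lymphatic vessels and of some macrophages, was 1.23, 1.1, and 0.352 CPM in the LFD libraries, 8.57, 6.68, and 10.2 CPM in the HFD libraries, and 4.37, 3.39, and 4.7 CPM in the HFD + EC359 libraries. Lyve1 changed by 3.23 on the log2 scale (SE 0.32, adjusted p = 4.09e-10). The other lymphatic markers tested, 4 in all with Lyve1, changed less, and Flt4 changed by 0.52. Esm1, which encodes a proteoglycan secreted by endothelium and was chosen after its values were seen, was 0.818, 1.88, and 1.76 CPM in the LFD libraries, 12.2, 11.4, and 8.86 CPM in the HFD libraries, and 4.97, 3.39, and 4 CPM in the HFD + EC359 libraries. Esm1 changed by 2.81 on the log2 scale (SE 0.26, adjusted p = 1.07e-10). In Lyve1 and Esm1 the drug group lay between LFD and HFD without overlap. Slc4a4, a bicarbonate transporter, and Lpar4, a lysophosphatidic acid receptor, were 2 of the 12 largest increases, at 3.24 and 3.11.

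Complement genes rose with HFD. Of 16 tested genes 14 rose, 0 fell and 5 were called higher (median 0.66). C4b (mm9 chr17:34865326-34880842), which encodes a component of the classical pathway, was 67.7, 66.2, and 72.6 CPM in the LFD libraries, 195, 222, and 198 CPM in the HFD libraries, and 128, 119, and 121 CPM in the HFD + EC359 libraries. C4b changed by 1.57 on the log2 scale (SE 0.0571, adjusted p = 3.62e-21). C6, which encodes a component of the membrane attack complex, was 0.818, 1.41, and 1.23 CPM in the LFD libraries, 11.1, 8.91, and 10.1 CPM in the HFD libraries, and 19.2, 15.2, and 17.4 CPM in the HFD + EC359 libraries. C6 changed by 3.07 on the log2 scale (SE 0.26, adjusted p = 1.22e-11). Serping1, which encodes the C1 inhibitor, was 15.8, 14.9, and 19.4 CPM in the LFD libraries, 38.2, 42, and 37.6 CPM in the HFD libraries, and 18.7, 19.6, and 18.5 CPM in the HFD + EC359 libraries. Serping1 changed by 1.24 on the log2 scale (SE 0.11, adjusted p = 1.5e-11). Activating and inhibiting components thus rose together. In C6 the libraries with EC359 were above those of HFD, in C4b they were between the other groups, and in Serping1 they were near LFD. Saa3, which encodes an acute phase apolipoprotein and was chosen after its values were seen, was 11.7, 12.4, and 8.99 CPM in the LFD libraries, 41.6, 40.0, and 40.8 CPM in the HFD libraries, and 12.6, 12.2, and 11.4 CPM in the HFD + EC359 libraries. Saa3 changed by 1.88 on the log2 scale (SE 0.11, adjusted p = 2.57e-15).

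Immune cell markers moved in both directions. Of 24 macrophage markers 11 rose and 8 fell, with Emr1 (F4/80) at 0.47, Cd68 at 0.47 and Mrc1 (CD206) at -0.36 on the log2 scale. Their summed level was 3159 to 3209 CPM in the LFD libraries, 3164 to 3191 CPM in the HFD libraries, and 3804 to 3845 CPM in the HFD + EC359 libraries, and the LFD and HFD ranges overlapped. Of 15 neutrophil markers 6 rose and 3 fell. Lcn2, which encodes lipocalin-2, was 32.3, 43.6, and 43.4 CPM in the LFD libraries, 103, 94.8, and 105 CPM in the HFD libraries, and 106, 108, and 118 CPM in the HFD + EC359 libraries (log2 fold change 1.33, SE 0.0765, adjusted p = 1.14e-15), and Ngp was 1.43, 2.04, and 1.41 CPM in the LFD libraries and 6.68, 7.99, and 7.9 CPM in the HFD libraries (log2 fold change 2.17, SE 0.26, adjusted p = 3.01e-08), whereas Stfa3, a stefin gene, was 12.3, 14.8, and 18 CPM in the LFD libraries and 1.13, 1.05, and 1.36 CPM in the HFD libraries. Stfa3 changed by -3.66 on the log2 scale (SE 0.23, adjusted p = 1.72e-14). Among chemokines and cytokines 10 of 27 rose and 8 fell. Ccl11, which encodes the eosinophil attractant eotaxin, was 0.614, 0.314, and 0.705 CPM in the LFD libraries, 3.15, 3.14, and 3.41 CPM in the HFD libraries, and 1.21, 1.35, and 1.7 CPM in the HFD + EC359 libraries. Ccl11 changed by 2.57 on the log2 scale (SE 0.41, adjusted p = 4.33e-06). Cxcl12, which encodes a chemokine of stromal cells, was 12.3, 14.3, and 15.2 CPM in the LFD libraries, 37.1, 42.4, and 42.7 CPM in the HFD libraries, and 18.9, 20.3, and 17.9 CPM in the HFD + EC359 libraries. Cxcl12 changed by 1.54 on the log2 scale (SE 0.11, adjusted p = 1.74e-13). Il33, which encodes an alarmin of stromal and epithelial cells, was 8.18, 5.49, and 6.52 CPM in the LFD libraries, 28.4, 26.7, and 22.5 CPM in the HFD libraries, and 25.6, 27.4, and 28.7 CPM in the HFD + EC359 libraries. Il33 changed by 1.97 on the log2 scale (SE 0.14, adjusted p = 4.52e-13). In these 3 genes the HFD libraries were above all LFD libraries. Igj, which encodes the joining chain of secreted antibodies, was 0, 0.157, and 0.529 CPM in the LFD libraries, 5.67, 5.11, and 4.09 CPM in the HFD libraries, and 0.849, 1.02, and 0.5 CPM in the HFD + EC359 libraries, higher with HFD by 21.1-fold (95% counting interval 8.01 to 78.7). Only 2 of the 14 listed B and plasma cell markers were high enough to be tested, and the other neither rose nor fell (-0.09).

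T and NK cell genes were low, with a summed level of 34.2 to 38.1 CPM in the LFD libraries, 27.6 to 28.2 CPM in the HFD libraries, and 38.8 to 44.9 CPM in the HFD + EC359 libraries. Of 12 tested markers 5 fell and 0 rose. Foxp3, the transcription factor of regulatory T cells, was 3.27, 4.4, and 2.82 CPM in the LFD libraries, 0.757, 1.05, and 1.09 CPM in the HFD libraries, and 2.18, 2.48, and 2.2 CPM in the HFD + EC359 libraries (log2 fold change -1.86, SE 0.35, adjusted p = 3.31e-05), although it overlaps 4930524L23Rik on its strand. Of 8 tested dendritic cell genes 2 rose and 4 fell (median -0.14). The largest decreases were in Ccl22 (-1.45) and Ccr7 (-1.32), and Itgax, which encodes CD11c, rose by 0.40. MHC class II genes rose slightly, 7 of 9 with a median of 0.29, and H2-Aa was 36.2, 45.4, and 47.2 CPM in the LFD libraries, 58.5, 67.1, and 61.7 CPM in the HFD libraries, and 131, 130.1, and 126 CPM in the HFD + EC359 libraries. H2-Aa changed by 0.53 on the log2 scale (SE 0.0767, adjusted p = 7.45e-07). In MHC class I 4 genes rose and 9 fell of 14. B2m, the shared light chain, was 218, 325, and 313 CPM in the LFD libraries, 562, 572, and 581 CPM in the HFD libraries, and 763, 767, and 785 CPM in the HFD + EC359 libraries (log2 fold change 0.99, SE 0.0671, adjusted p = 6.33e-14), and H2-K1, a heavy chain, was 488, 428, and 439.6 CPM in the LFD libraries and 370.0, 382, and 354 CPM in the HFD libraries. H2-K1 changed by -0.29 on the log2 scale (SE 0.0414, adjusted p = 5.17e-07). They moved in opposite directions, and the GC-removed changes were 0.67 and -0.09.

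Mast cell genes fell with HFD. Of 12 tested markers 9 fell, 1 rose and 6 were called lower (median -1.29), and their summed level was 206 to 227 CPM in the LFD libraries, 95.7 to 99.3 CPM in the HFD libraries, and 249.7 to 257 CPM in the HFD + EC359 libraries. Mcpt4, which encodes a chymase of connective tissue mast cells, was 18.8, 21.8, and 22.6 CPM in the LFD libraries, 4.79, 4.98, and 4.5 CPM in the HFD libraries, and 29.8, 27.9, and 26.2 CPM in the HFD + EC359 libraries. Mcpt4 changed by -2.15 on the log2 scale (SE 0.14, adjusted p = 5.6e-14). Tpsab1, which encodes a tryptase, was 36.6, 41.6, and 33.8 CPM in the LFD libraries, 7.69, 9.04, and 8.86 CPM in the HFD libraries, and 64, 61.2, and 64.6 CPM in the HFD + EC359 libraries. Tpsab1 changed by -2.14 on the log2 scale (SE 0.12, adjusted p = 2.04e-16). Tpsb2 and Cma1 changed by -1.88 and -1.57. The exception was Kit, the stem cell factor receptor that other cells also express, which was 8.8, 12.9, and 10.6 CPM in the LFD libraries and 19.4, 21.7, and 19.8 CPM in the HFD libraries. Kit changed by 0.90 on the log2 scale (SE 0.14, adjusted p = 1.89e-06). These 4 protease genes were lowest in the 3 HFD libraries, and with EC359 Mcpt4, Tpsab1, Tpsb2 and Cma1 were at or above the LFD level. Mcpt1, the protease with the largest decrease of the list, was 5.73, 9.58, and 5.46 CPM in the LFD libraries, 0.63, 1.05, and 0.954 CPM in the HFD libraries, and 2.91, 1.81, and 3.4 CPM in the HFD + EC359 libraries. Mcpt1 changed by -2.99 on the log2 scale (SE 0.34, adjusted p = 6.27e-09). With EC359 it was still called lower (log2 fold change -1.37). Connective tissue mast cells are also found in the dermis. The epidermis markers fell with HFD too. With EC359 their summed level lay below that of LFD, and the mast cell sum lay above that of LFD. The part of skin in the mast cell decrease was not tested.

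The lipid gene lists are to be read beside the 26.0% of all tested genes that rose and the 25.8% that fell. Of 23 cholesterol synthesis genes 12 fell (52.2%) and 2 rose (8.7%), none past 2-fold. Of 19 fatty acid synthesis genes 5 rose (26.3%) and 6 fell (31.6%), shares near those of all tested genes. Among those that fell were Srebf1 (-0.53) and Scd2, the abundant desaturase (-0.16). Of 23 genes of fatty acid uptake and oxidation 7 fell (30.4%) and 2 rose (8.7%). Cd36, a fatty acid transporter, was 3.48, 5.18, and 4.93 CPM in the LFD libraries, 10.2, 11.9, and 10.8 CPM in the HFD libraries, and 13.3, 10.6, and 11.3 CPM in the HFD + EC359 libraries (log2 fold change 1.25, SE 0.19, adjusted p = 1.09e-06), and its change was 0.82 in the GC-corrected fit, under the threshold. Fabp4, the fatty acid-binding protein of adipocytes, macrophages and endothelium, was 4.91, 7.38, and 6.34 CPM in the LFD libraries, 21.4, 18.7, and 19.8 CPM in the HFD libraries, and 18, 21.6, and 18.8 CPM in the HFD + EC359 libraries (log2 fold change 1.66, SE 0.15, adjusted p = 5.62e-11), whereas Fabp5, that of epidermis, was 32.7, 45.7, and 47.1 CPM in the LFD libraries, 17.9, 15.1, and 20.3 CPM in the HFD libraries, and 42.5, 37.7, and 39.2 CPM in the HFD + EC359 libraries. Fabp5 changed by -1.25 on the log2 scale (SE 0.12, adjusted p = 1.52e-10). Of 11 adipocyte markers 3 rose and 2 fell, and their summed level was 170.5 to 186 CPM in the LFD libraries, 159 to 172 CPM in the HFD libraries, and 183 to 188 CPM in the HFD + EC359 libraries. The HFD libraries were above LFD for Cd36 and Fabp4 and below LFD for Fabp5, without overlap. Adipoq and Lep, which encode adiponectin and leptin, were too low to be tested. Lepr, which encodes the leptin receptor, was 2.05, 2.67, and 3.35 CPM in the LFD libraries, 8.32, 9.96, and 7.09 CPM in the HFD libraries, and 4.37, 3.61, and 4.4 CPM in the HFD + EC359 libraries. Lepr changed by 1.63 on the log2 scale (SE 0.23, adjusted p = 4.95e-07).

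Genes of mitosis, DNA replication, glycolysis and oxidative phosphorylation changed by under 2-fold, except for 2 of the last list. Of 25 mitosis genes 15 rose and 3 fell (median 0.26), but in the GC-corrected fit 9 rose and 7 fell. Mki67 was 311, 327, and 331 CPM in the LFD libraries and 433, 434, and 438 CPM in the HFD libraries (log2 fold change 0.43, SE 0.0377, adjusted p = 2.96e-11, and 0.24 in that fit). Of 30 DNA replication genes 5 rose and 15 fell (median -0.14), or 1 and 13 in the GC-corrected fit. Of 76 oxidative phosphorylation genes 31 fell (40.8%) and 12 rose (15.8%), but in the GC-corrected fit 23 fell and 16 rose. Of 28 glycolysis and hypoxia genes 10 fell (35.7%) and 5 rose (17.9%), or 11 and 7 in that fit. Cox7b, a subunit gene of cytochrome c oxidase, was 6.96, 11.9, and 8.81 CPM in the LFD libraries, 22.2, 23.2, and 21.7 CPM in the HFD libraries, and 30.2, 30.02, and 29.7 CPM in the HFD + EC359 libraries. Cox7b changed by 1.24 on the log2 scale (SE 0.14, adjusted p = 3.05e-09). Ndufa12, of complex I, was 2.46, 2.83, and 3.7 CPM in the LFD libraries, 5.93, 5.24, and 9 CPM in the HFD libraries, and 10.6, 6.54, and 4.4 CPM in the HFD + EC359 libraries. Ndufa12 changed by 1.15 on the log2 scale (SE 0.30, adjusted p = 0.00202). Both were called higher and still called with EC359, but Cox7b lost the first call in the GC-corrected fit (0.95) and Ndufa12 lost it without HFD replicate 3 (0.89). Heat shock chaperones rose, 10 of 14 with 10 in the GC-corrected fit, and Hspa1b was 69.4, 59.7, and 71 CPM in the LFD libraries, 118, 122, and 124 CPM in the HFD libraries, and 51.9, 49.6, and 47 CPM in the HFD + EC359 libraries. Hspa1b changed by 0.87 on the log2 scale (SE 0.0612, adjusted p = 1.74e-13). The serine synthesis gene Phgdh was 279.9, 264, and 267 CPM in the LFD libraries, 147, 146, and 144 CPM in the HFD libraries, and 144, 138, and 139 CPM in the HFD + EC359 libraries (log2 fold change -0.89, SE 0.0426, adjusted p = 1.03e-17), and Slc7a11, which encodes the cystine transporter, was 47.9, 51.6, and 52.2 CPM in the LFD libraries, 113, 118, and 113 CPM in the HFD libraries, and 89.4, 87, and 81.4 CPM in the HFD + EC359 libraries (log2 fold change 1.18, SE 0.06, adjusted p = 4.72e-17), with 0.76 on the log2 scale in the GC-corrected fit, under the threshold.

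The diet changed the genes of the pathway that EC359 targets by under 2-fold, except for Cntfr. Lif was 20.3, 14.1, and 16 CPM in the LFD libraries, 20.3, 17.2, and 17.3 CPM in the HFD libraries, and 12, 11.4, and 9.6 CPM in the HFD + EC359 libraries (log2 fold change 0.14, adjusted p = 0.381). Lifr was 69.2, 67.8, and 78.4 CPM in the LFD libraries, 83.2, 80.4, and 80.5 CPM in the HFD libraries, and 111, 109, and 99.3 CPM in the HFD + EC359 libraries (log2 fold change 0.18, SE 0.0629, adjusted p = 0.0159), which was lost without LFD replicate 2 (log2 fold change 0.13) or HFD replicate 1 (0.17) and turned to -0.06 in the GC-corrected fit. Il6st, which encodes the shared receptor gp130, was 234, 257, and 254 CPM in the LFD libraries, 292, 283, and 306 CPM in the HFD libraries, and 309, 316, and 302 CPM in the HFD + EC359 libraries. Il6st changed by 0.24 on the log2 scale (SE 0.0425, adjusted p = 2.06e-05). The HFD libraries overlapped LFD for Lif and not for Lifr or Il6st. Of 25 genes of the IL-6 family and STAT3 feedback 3 rose and 11 fell, and Socs3, which is induced by STAT3, was 286, 253, and 260.3 CPM in the LFD libraries, 209, 204, and 191 CPM in the HFD libraries, and 157, 173, and 146 CPM in the HFD + EC359 libraries. Socs3 changed by -0.40 on the log2 scale (SE 0.0519, adjusted p = 9.82e-08). In the GC-corrected fit Socs3 changed by -0.13, and 3 genes of the list rose and 7 fell. Cntfr, which encodes the receptor for ciliary neurotrophic factor, was the only gene of the IL-6 family list called. It was 2.66, 2.04, and 1.76 CPM in the LFD libraries, 0.252, 0.262, and 0.273 CPM in the HFD libraries, and 0.849, 0.226, and 0.3 CPM in the HFD + EC359 libraries, lower with HFD by 8.12-fold (95% counting interval 3.39 to 23.6). Immediate early genes also fell, 15 of 23 with 0 higher, for example Jund, which was 504, 408, and 426 CPM in the LFD libraries, 245, 256, and 232 CPM in the HFD libraries, and 193, 205, and 193 CPM in the HFD + EC359 libraries (log2 fold change -0.86, SE 0.0527, adjusted p = 5.05e-15), and in the GC-corrected fit 10 fell and 2 rose.

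Several groups of genes with low GC content or many copies rose, but not all of them did so in the GC-corrected fit. Among the clustered histone genes 27 of 63 rose and 15 fell, or 43 and 5 in the GC-corrected fit, and the 15 called were 13 of the 16 tested H2B genes and 2 of the 17 tested H2A genes. The log2 fold changes of the H2B genes were 0.10 to 2.0, with a median of 1.17. The medians were 0.14 for H2A, -0.16 for H1, -0.05 for H3 and -0.11 for H4 genes. Hist1h2bm was 5.52, 15.2, and 12.5 CPM in the LFD libraries, 40.9, 49, and 48 CPM in the HFD libraries, and 60.9, 51.8, and 55 CPM in the HFD + EC359 libraries. Hist1h2bm changed by 2.0 on the log2 scale (SE 0.15, adjusted p = 6.81e-13). Histone genes are near-identical copies of one another and mostly lack a poly(A) tail, so their counts from poly(A)-selected RNA are uncertain. Of 29 zinc finger genes numbered Zfp900 and up, a list written after the values were seen, 18 rose. In the GC-corrected fit 6 rose, a share near that of all tested genes in that fit. Tmsb4x, which encodes the actin-binding thymosin beta 4, was 129.5, 159, and 162 CPM in the LFD libraries, 322, 309, and 325 CPM in the HFD libraries, and 348, 366, and 339 CPM in the HFD + EC359 libraries. Tmsb4x changed by 1.08 on the log2 scale (SE 0.0534, adjusted p = 2.3e-17). It lost the call without LFD replicate 1 (log2 fold change 0.99) and in that fit (0.85), as did LOC624853 (0.87 and 0.89), which also lost it without HFD replicate 1 (0.99) or HFD replicate 3 (0.97). Ier5, among the most abundant genes called lower, was 258, 217, and 208 CPM in the LFD libraries and 114, 113, and 108 CPM in the HFD libraries (log2 fold change -1.02, SE 0.0586, adjusted p = 1.08e-15) and lost it under the same 2 conditions as Tmsb4x (-0.93 and -0.95) and when scaled by library totals alone (-0.98). Lars2, which encodes the mitochondrial leucyl-tRNA synthetase, was 73.7, 102, and 72.1 CPM in the LFD libraries, 432, 308, and 155 CPM in the HFD libraries, and 53.6, 435, and 106 CPM in the HFD + EC359 libraries. It varied more than 2-fold between libraries of HFD and of HFD + EC359, and DESeq2 gave it an adjusted p of 0.0435.

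**Figure D4:**
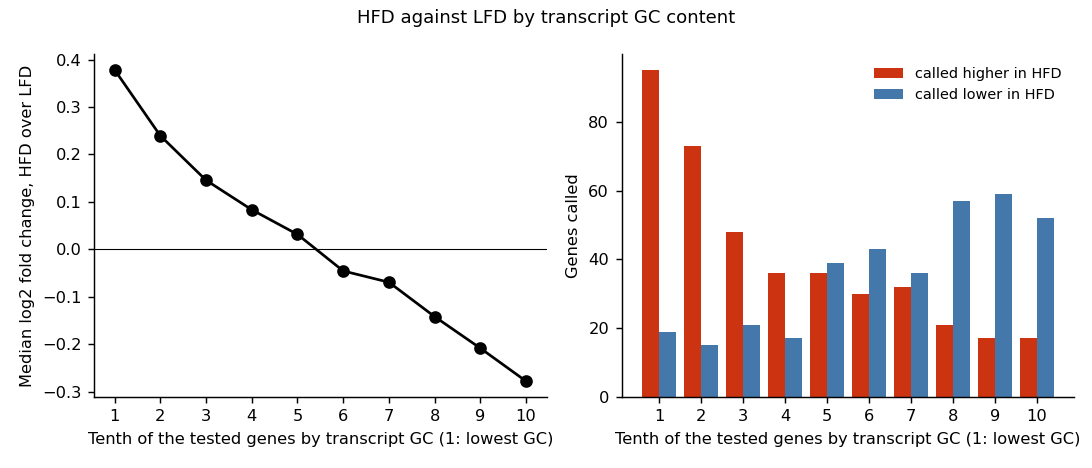
The tested genes were divided into 10 groups of equal size by the GC content of their transcripts, from the lowest (1) to the highest (10). The left panel gives the median log2 fold change, HFD over LFD, which fell from 0.38 to -0.28, and the right panel the number of genes called higher (red) and lower (blue), which were 95 and 19 in group 1 and 17 and 52 in group 10.

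A set of imprinted genes, listed after their values were seen, was higher with HFD. Of 16 tested genes 10 rose and 2 fell, and 7 were called higher. Meg3, a noncoding RNA of the Dlk1-Dio3 region whose annotation overlaps 3 short RNAs, was 12.3, 15.5, and 13.2 CPM in the LFD libraries, 49.1, 48.7, and 47.7 CPM in the HFD libraries, and 12.4, 15.5, and 14.6 CPM in the HFD + EC359 libraries. Meg3 changed by 1.81 on the log2 scale (SE 0.11, adjusted p = 1.7e-15). Rian, a noncoding RNA of the same region, was 4.09, 4.87, and 3.7 CPM in the LFD libraries, 16, 17, and 17 CPM in the HFD libraries, and 3.76, 5.53, and 5.1 CPM in the HFD + EC359 libraries. Rian changed by 1.97 on the log2 scale (SE 0.17, adjusted p = 3.18e-11). Grb10, which encodes an adaptor that restrains insulin signaling, was 8.59, 7.69, and 12.2 CPM in the LFD libraries, 28.5, 26.5, and 21.4 CPM in the HFD libraries, and 15.5, 19.97, and 14.8 CPM in the HFD + EC359 libraries. Grb10 changed by 1.43 on the log2 scale (SE 0.15, adjusted p = 2.08e-09). Meg3 and Rian were back at the LFD level with EC359, and Grb10 was between the groups. 6430411K18Rik, from the largest increases, was 0.409, 0, and 0.352 CPM in the LFD libraries and 1.39, 2.36, and 1.77 CPM in the HFD libraries, higher by 7.76-fold (95% counting interval 2.82 to 29.8), and overlaps Mir127 and Mir433 on its strand.

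To find the diet-associated changes that EC359 did not restore, genes called in HFD against LFD were looked up in HFD + EC359 against LFD. In that second comparison 3.66% of the tested genes were called higher and 1.43% lower. Of the 405 genes called higher with HFD, 197 (48.6%) were also called higher with EC359, and 124 no longer differed from LFD at an adjusted p under 0.05. Of the 358 called lower, 81 (22.6%) were also called lower with EC359, and 152 no longer differed at that level. Of these, 1 gene called higher and 3 called lower were called in the opposite direction. Both comparisons use the same 3 LFD libraries, so a deviation of those libraries enters both, and the counts are a description. The median GC content was 43.9% for the 197 genes, 49.5% for the other genes called higher and 50.8% for all tested genes. In the GC-corrected fit, 121 genes were still higher, of which 100 were among the 197, and 69 were still lower, of which 48 were among the 81.

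Over all 405 genes called higher, the median log2 fold change against LFD was 1.37 with HFD and 1.09 with EC359. Over all 358 called lower it was -2.20 with HFD and -0.59 with EC359. The genes still called were chosen for differing from LFD with EC359, so their own medians are a description. The 197 genes still higher had a median log2 fold change of 1.34 with HFD and 1.49 with EC359, both against LFD. Tested directly against HFD, 4 of them were called higher still with EC359 and 4 were called lower. The 81 genes still lower had medians of -2.53 and -1.35, and 30 of them were called higher with EC359 than with HFD. Of the 22 squamous genes called lower, 4 were still called lower with EC359, a share near that of all genes called lower, and so were 2 of the 14 epidermis markers and 1 of the 11 junction genes. None of the 3 pericyte genes called higher, 1 of the 10 fibroblast genes and 3 of the 9 proteoglycan and elastic fiber genes were still called higher.

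**Figure D5:**
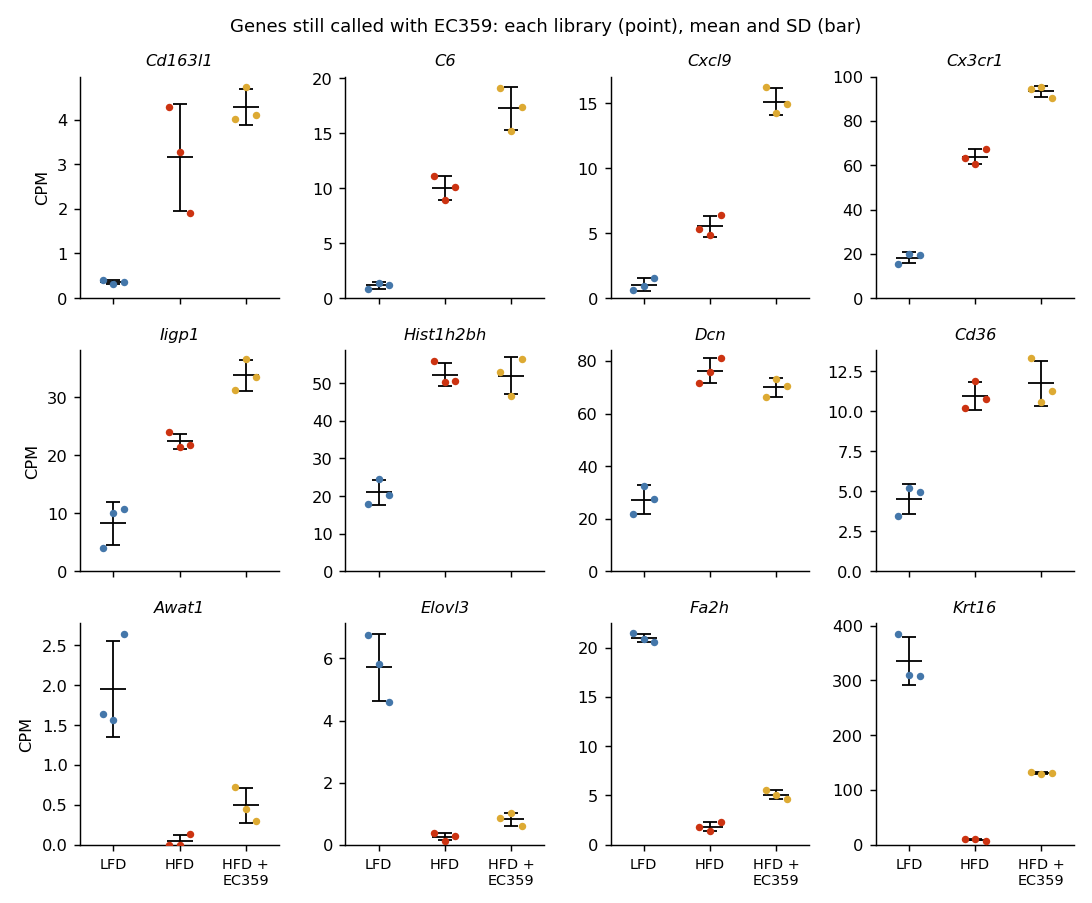
Each panel shows the level in CPM of a gene that was called in HFD and in HFD + EC359, both against LFD, with points for libraries and bars for mean and SD. For Cxcl9, C6 and Cx3cr1 the libraries with EC359 lie above those of HFD, for Dcn and Hist1h2bh they lie at about the same height, and for Fa2h and Krt16 they lie between HFD and LFD.

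Genes still called with EC359 were ranked by the smaller of their 2 log2 fold changes against LFD. C6 and Krt77, described above, were 2 of the first 10 that were higher. Cd163l1, of the scavenger receptor family, was 0.409, 0.314, and 0.352 CPM in the LFD libraries, 4.29, 3.27, and 1.91 CPM in the HFD libraries, and 4, 4.74, and 4.1 CPM in the HFD + EC359 libraries, higher with HFD by 9-fold (95% counting interval 3.94 to 25.3). Adamdec1, which encodes a protease of tissue macrophages and dendritic cells, was 2.25, 2.35, and 1.41 CPM in the LFD libraries, 11.2, 10.5, and 10.9 CPM in the HFD libraries, and 17, 19.2, and 22.9 CPM in the HFD + EC359 libraries (log2 fold change 2.43 with HFD and 3.29 with EC359). Gpr34, a lysophosphatidylserine receptor of macrophages, was 0.205, 0.157, and 0.529 CPM in the LFD libraries, 1.26, 1.7, and 2.86 CPM in the HFD libraries, and 2.79, 4.63, and 5.2 CPM in the HFD + EC359 libraries, higher with HFD by 6.51-fold (95% counting interval 2.59 to 21). In all 3 genes the libraries of both HFD groups were above those of LFD. Cxcl9, which encodes an interferon-induced chemokine for T cells, was 0.614, 0.942, and 1.59 CPM in the LFD libraries, 5.3, 4.85, and 6.41 CPM in the HFD libraries, and 16.3, 14.2, and 14.9 CPM in the HFD + EC359 libraries (2.35 and 3.81). Lilra5 and Bmp5 changed by 2.46 and 2.83 with HFD, and by 2.63 and 2.87 with EC359. Ifitm6 changed by 3.09 and 3.57, and Gm4841 by 2.77 and 2.76. Ifitm6 lost its call with HFD without LFD replicate 3 (2.57) or HFD replicate 1 (2.48) and in DESeq2 (3.25, adjusted p = 0.0127), and Gm4841 without HFD replicate 2 (2.46).

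Of the 24 macrophage markers listed, 1 was called higher with HFD, and it was still called with EC359. Further immune genes were picked out after their values were seen and stand for no list. Cx3cr1, the fractalkine receptor of monocytes and macrophages, was 15.3, 19.8, and 19.6 CPM in the LFD libraries, 63, 60.8, and 67.5 CPM in the HFD libraries, and 94.4, 95.3, and 90.5 CPM in the HFD + EC359 libraries (log2 fold change 1.79, SE 0.088, adjusted p = 1.89e-17 with HFD, and log2 fold change 2.34 with EC359). Fcgr4, an activating Fc receptor, was 2.05, 3.3, and 4.23 CPM in the LFD libraries, 12, 11.7, and 11.3 CPM in the HFD libraries, and 17.7, 20.4, and 20.7 CPM in the HFD + EC359 libraries. Fcgr4 changed by 1.84 on the log2 scale (SE 0.20, adjusted p = 2.37e-09). Tlr8, a receptor for RNA, was 2.25, 2.67, and 1.76 CPM in the LFD libraries, 7.57, 7.6, and 8.18 CPM in the HFD libraries, and 12.1, 10.3, and 9.6 CPM in the HFD + EC359 libraries. Tlr8 changed by 1.79 on the log2 scale (SE 0.23, adjusted p = 1.1e-07). These 3 were ordered LFD, HFD, HFD + EC359 with no overlap between the groups. Of 11 tested Toll-like receptors, also listed afterward, 8 rose with HFD, or 6 in the GC-corrected fit. Of 30 tested interferon-stimulated genes, a broader list, 12 rose and 5 fell with HFD, or 8 and 6 in the GC-corrected fit. Their median log2 fold change against LFD was 0.13 with HFD and 0.02 with EC359, and 1 of them, Cxcl9, was called with HFD. Of 16 immunity-related and guanylate-binding GTPases, also listed afterward, 16 rose, or 14 in the GC-corrected fit. The 6 GTPase genes called higher were all still called with EC359. Tgtp2 was 1.84, 3.3, and 3.35 CPM in the LFD libraries, 8.45, 7.73, and 9.68 CPM in the HFD libraries, and 11.9, 14.6, and 15.4 CPM in the HFD + EC359 libraries (log2 fold change 1.57, SE 0.23, adjusted p = 6.26e-07), and it overlaps the near-identical Tgtp1 on its strand. Iigp1 was 4.09, 10.0, and 10.8 CPM in the LFD libraries, 24, 21.5, and 21.8 CPM in the HFD libraries, and 31.3, 36.6, and 33.5 CPM in the HFD + EC359 libraries (log2 fold change 1.39, SE 0.16, adjusted p = 1.58e-08), with 0.98 in the GC-corrected fit, just under the threshold.

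Stromal and vascular genes that were still called higher included Dcn, Efemp1, Clec3b, Lyve1, Cdh5 and Emcn, whose values are given above. Dcn changed by 0.99 with EC359 against LFD in the GC-corrected fit, just under the threshold. Stc1, which encodes the secreted glycoprotein stanniocalcin-1 and was chosen after its values were seen, was 26.6, 32.3, and 23.1 CPM in the LFD libraries, 117, 116, and 122 CPM in the HFD libraries, and 77.1, 75.6, and 67.5 CPM in the HFD + EC359 libraries. Stc1 changed by 2.1 on the log2 scale (SE 0.0799, adjusted p = 1.46e-20). Fabp4, Cd36, Il33, Lcn2 and all 15 histone genes called higher were also still called with EC359. Igf1, which encodes insulin-like growth factor 1, was 6.34, 11.3, and 7.75 CPM in the LFD libraries, 18.4, 18.9, and 16.8 CPM in the HFD libraries, and 20.01, 19.3, and 19.9 CPM in the HFD + EC359 libraries (log2 fold change 1.06, SE 0.15, adjusted p = 4.05e-07), but it was under the threshold without LFD replicate 1 (0.90) or LFD replicate 3 (0.98) and in the GC-corrected fit (0.59).

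The first 10 genes still lower, ranked in the same way, included several lipid enzymes of sebaceous and other surface epithelium, beside Gm5478. Elovl3, which encodes an elongase of very long fatty acids, was 6.75, 5.81, and 4.58 CPM in the LFD libraries, 0.378, 0.131, and 0.273 CPM in the HFD libraries, and 0.849, 1.02, and 0.6 CPM in the HFD + EC359 libraries, lower with HFD by 21.6-fold (95% counting interval 9.59 to 60.4). Fa2h, which encodes a fatty acid 2-hydroxylase, was 21.5, 20.9, and 20.6 CPM in the LFD libraries, 1.77, 1.44, and 2.32 CPM in the HFD libraries, and 5.58, 5.08, and 4.6 CPM in the HFD + EC359 libraries (log2 fold change -3.50 with HFD and -2.05 with EC359). Sec14l4, of a family of lipid-binding proteins, was 7.77, 9.73, and 6.7 CPM in the LFD libraries, 0.504, 0.262, and 0 CPM in the HFD libraries, and 1.46, 0.677, and 1 CPM in the HFD + EC359 libraries (-4.87 and -2.95). The drug group lay between the others for these genes and nearer to HFD. Ces4a, a carboxylesterase gene, was 5.32, 6.12, and 5.64 CPM in the LFD libraries, 0.504, 0.393, and 0.409 CPM in the HFD libraries, and 0.97, 1.13, and 1.3 CPM in the HFD + EC359 libraries (-3.66 and -2.31). With EC359 Awat1 changed by -1.98. Acsbg1, an acyl-CoA synthetase gene chosen after its values were seen, was 13.9, 12.2, and 12.3 CPM in the LFD libraries, 5.17, 4.19, and 4.09 CPM in the HFD libraries, and 6.55, 4.4, and 6.2 CPM in the HFD + EC359 libraries (-1.50 and -1.16). Of the 7 sebaceous gland genes called lower with HFD, 5 were still called lower. Among these, Acsbg1 was under the threshold with EC359 in the GC-corrected fit (-0.94). Rassf10, Cntfr, Tmem56 and Kcnh1 completed these 10, at -3.53, -2.94, -2.36 and -2.15 with HFD and -1.96, -2.22, -1.93 and -2.02 with EC359. Basal and stress keratins were restored to unequal degrees. Krt14 and Krt16 were still called lower, at -1.68 and -1.35 with EC359 against LFD, compared with -4.23 and -5.14 with HFD alone. In the GC-corrected fit their changes with EC359 were -1.43 and -1.17. In that fit Krt6a, Krt5, Krt6b and Krt17 lay nearer to LFD with EC359, at -0.69, -0.57, -0.39 and 0.01.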

How the data were processed

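Tumor RNA was sequenced as 9 stranded, poly(A)-selected, paired-end libraries, 3 each of LFD, HFD and HFD + EC359. The authors deposited 1 table of expected counts per library, counted by featureCounts per gene on mm9 with reads of several places split into fractions, per the file headers. The submitters' processing notes name HISAT2 2.1.0, whereas the study's methods name TopHat2 and HTSeq. The fractional counts were rounded to whole numbers.

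Groups came from the labels. Genes were kept by filterByExpr, scaled by TMM, and tested in edgeR 4.0.16 (R 4.3.3) by its quasi-likelihood test with 3 groups in 1 fit and Benjamini-Hochberg adjustment over 13366 of 22609 genes. A call needed a fold above 2 and an adjusted p under 0.01. DESeq2 1.42.0 and the other alternatives are in the closing section. On counts simulated from these libraries, with planted 3-fold changes and no GC trend between groups, 189 of 200 changed genes were recovered. Changes nearer the threshold were not simulated. Fold bounds use 3 counts per library, and counting intervals are exact, at 95%, on summed counts.

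The named genes were the 12 largest separated changes in each direction, the 8 most abundant called, up to 4 of each list, the 10 still called with EC359 in each direction that ranked highest by the smaller of the 2 log2 fold changes, and Lif, Lifr and Il6st. Not all of them are printed, and some are not reported here. The members and lists were chosen with earlier results of these data known. Genes and lists said to be chosen later were chosen after their values were seen. Promoters were matched by symbol, 9270 tested genes by the current and 1100 by an older one.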

Additional observations from a re-analysis of the deposited data

How the results depend on the processing

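Leaving out each library in turn gave 354 to 422 genes called higher and 343 to 373 called lower, and 162 to 232 still higher and 79 to 91 still lower with EC359. DESeq2 called 341 higher and 341 lower, of which 340 and 337 were also called by edgeR. The counts moved by over 1.5 times in 4 settings. With at least 10 counts required in every library, which removes genes that are near 0 in 1 group, 212 genes were called higher and 144 lower, and 106 and 32 were still called. With a log2 fold change of at least 2 these were 59, 200, 17 and 6. In the GC-corrected fit 121 genes were still higher, and 117 with the replicate block as well. A replicate block gave 404 higher and 355 lower, but the replicate numbers did not pair the samples (correlation of same-numbered deviations 0.017, -0.0238 and -0.00232). Small changes turned in sign in the GC-corrected fit, without and with the block: Acsl4 (-0.0165 and -0.0169), Nr3c1 (-0.0286 and -0.0251), Kcnq1ot1 (-0.117 and -0.1119) and Lifr (-0.0587 and -0.0620). Krt10 ranged from -0.0334 to 0.1187 when 1 library was left out. The cause of these changes was not tested. Where a group had 3 counts or fewer per library, depth limits the size of a fold.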
